A study of Mus musculus with 131 samples.

Results

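Transcription factors that direct or accompany the trophectoderm programme were followed here, in cells of chimaeric mouse blastocysts and in cultured cell lines. The 10 genes were Tead4, Cdx2, Gata3, Gata2, Eomes, Elf5, Tfap2c, Tfap2a, Elf3 and Hand1. They were chosen by name for their known roles, but with earlier results of these data known. Of these, 9 were among the 13927 genes of the deposited expression table and Hand1 had no row in it, whereas all 10 had windows in the deposited methylation files. The study placed embryonic stem cells (ESCs) inside diploid host embryos. All samples are labelled C57BL/6J. The RFP cells were 55 single cells of E4.0 blastocysts labelled with an Actin-RFP transgene and descended from the injected ESCs, and the GFP cells were 40 single cells of E4.0 blastocysts labelled with an Actin-GFP transgene, that of the host. Methylation was measured by bisulfite sequencing in 3 cultures: Actin-RFP ESCs at passage 10, Gjb2-35delG ESCs (homozygous for that deletion in Gjb2) at passage 7, and wild-type mouse embryonic fibroblasts (MEF) at passage 2. Each culture was 1 library, and no label names the embryo of a cell, so each group of cells counts as 1 sample. No test between groups was therefore possible and no p-value is given. The sources used here do not say from where in the blastocyst the cells were picked, so origin from injected ESCs or host and position in the blastocyst cannot be told apart.

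The trophectoderm is the outer epithelium of the blastocyst, from which the trophoblast of the placenta descends, while the inner cell mass gives the epiblast and the primitive endoderm. In mouse outer cells, low Hippo signalling lets the coactivators YAP1 and TAZ enter the nucleus, where they bind TEAD4 and raise Cdx2 and Gata3. CDX2 then holds the epithelial fate and restrains pluripotency genes, and EOMES, ELF5 and AP-2 gamma (TFAP2C) help to maintain trophoblast stem cells. Injected mouse ESCs contribute mainly to the epiblast, and the promoter of Elf5 is known as methylated in ESCs and unmethylated in trophoblast stem cells.

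The 250 bases before the transcription start are shown for 5 of the genes, to let CpG-rich starts (Cdx2, Gata3) be read beside starts with fewer CpGs (Eomes, Elf3, Elf5), since CpGs are where methylation is read. They are the RefSeq sequences of GRCm38.p6, the assembly behind the build mm10, written 5′ to 3′ on the strand of the gene up to the base before the start, with every CpG in capitals. Cdx2 lies on the minus strand (chr5:147307250-147307499), as do Gata3 (chr2:9878601-9878850) and Elf3 (chr1:135258473-135258722). Eomes lies on the plus strand (chr9:118477939-118478188), as do the 2 listed starts of Elf5, start 1 (chr2:103411848-103412097) and start 2 (chr2:103423818-103424067).
Cdx2: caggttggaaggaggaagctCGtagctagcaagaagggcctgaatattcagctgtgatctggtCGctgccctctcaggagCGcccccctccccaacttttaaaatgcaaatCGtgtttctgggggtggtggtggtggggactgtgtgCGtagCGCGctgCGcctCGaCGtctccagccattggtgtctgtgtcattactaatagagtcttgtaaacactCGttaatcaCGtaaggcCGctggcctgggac
Gata3: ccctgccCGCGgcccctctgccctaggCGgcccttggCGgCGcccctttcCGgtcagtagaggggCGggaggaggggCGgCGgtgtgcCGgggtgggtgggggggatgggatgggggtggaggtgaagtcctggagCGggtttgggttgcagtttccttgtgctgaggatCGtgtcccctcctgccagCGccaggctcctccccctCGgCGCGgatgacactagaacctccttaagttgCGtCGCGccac
Eomes: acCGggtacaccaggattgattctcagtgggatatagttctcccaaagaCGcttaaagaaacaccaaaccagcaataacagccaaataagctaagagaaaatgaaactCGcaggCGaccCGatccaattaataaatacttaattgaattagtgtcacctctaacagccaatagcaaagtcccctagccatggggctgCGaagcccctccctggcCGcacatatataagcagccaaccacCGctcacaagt
Elf3: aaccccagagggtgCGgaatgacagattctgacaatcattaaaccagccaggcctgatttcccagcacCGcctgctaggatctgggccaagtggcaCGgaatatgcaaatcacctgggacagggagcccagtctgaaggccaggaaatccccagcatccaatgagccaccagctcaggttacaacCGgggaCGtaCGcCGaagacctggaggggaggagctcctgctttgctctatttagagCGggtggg
Elf5 start 1: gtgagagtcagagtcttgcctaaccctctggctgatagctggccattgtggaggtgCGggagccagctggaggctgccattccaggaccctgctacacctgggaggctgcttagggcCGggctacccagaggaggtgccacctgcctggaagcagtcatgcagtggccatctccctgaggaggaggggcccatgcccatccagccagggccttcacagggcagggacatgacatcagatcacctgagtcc
Elf5 start 2: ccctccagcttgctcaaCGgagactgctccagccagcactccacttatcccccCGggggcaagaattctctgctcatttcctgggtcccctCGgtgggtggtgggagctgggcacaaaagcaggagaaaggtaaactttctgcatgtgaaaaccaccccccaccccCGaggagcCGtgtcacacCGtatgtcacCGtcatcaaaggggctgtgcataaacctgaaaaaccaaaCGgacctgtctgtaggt
Gata3 had 19 CpGs in this stretch, Cdx2 13, and Eomes and Elf3 8 each. Start 1 of Elf5 had 2 CpGs and start 2 had 8. The median over all 32851 promoters of the table was 6, so the Elf5 start 1 stretch was the one below it. Of the 10 members, 7 matched the promoter table with 10 starts in all. Start 2 of Gata2 had the most CpGs of these, 24.

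Short motifs of the same factor families were searched on both strands in the 300 bases around each start, 250 before it and 50 after. GGAATG, the core bound by TEAD factors, was in 3 of the 10 member promoters (Gata2 start 2, Elf5 start 1 and Elf3) and in 14.7% of all promoters. AGATAA, bound by the GATA family, was in 0 of 10 and in 11.2% of all promoters. GCCNNNGGC, the AP-2 palindrome, was in 3 of 10 (Cdx2, Gata3 and Gata2 start 2) and in 16.6% of all promoters. In Cdx2 its first base lay 16 bases before the start, and Gata3 held 3 such matches. AGGAAG, an ETS core, was in 3 of 10 (Cdx2 and both starts of Tfap2a) and in 35.4% of all promoters, and GGTGTGA, a T-box half-site, was in 2 of 10 (Gata2 start 1 and Elf5 start 2) and in 3.98%. These are letter matches in a short window and not measured binding sites.

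Depth varied widely between cells, with near medians in both groups. The recovered reads per cell had a median of 5584451 over the RFP cells (range 518064 to 9562072) and of 5607157 over the GFP cells (range 1996187 to 8315062). The summed level of 12 trophectoderm markers that include none of the 10 members had a median of 378 CPM (reads of a gene scaled by the total of the cell) over the RFP cells (range 0.418 to 4246), and of 11131 CPM over the GFP cells (range 20.8 to 20737). The summed level of 12 epiblast markers had a median of 3541 CPM over the RFP cells (range 34.7 to 6600), and of 121 CPM over the GFP cells (range 0.949 to 1720). The trophectoderm sum exceeded the epiblast sum in 2 of 55 RFP cells and in 39 of 40 GFP cells. The cells that went against their group were RFP6, RFP55 and GFP27. RFP6 had 62.0% of its reads in mitochondrially encoded genes. RFP55 had 4246 CPM of trophectoderm and 4150 CPM of epiblast markers, and GFP27 had 20.8 CPM of trophectoderm and 1720 CPM of epiblast markers. GFP27 also had 14.9% mitochondrial reads and 2626 genes detected, the fewest of the GFP cells. Of 12 primitive endoderm markers, 11 were at least 2-fold lower in RFP cells, beside 21.9% of all genes, but only 5 reached 10 CPM in a group. The 2 highest in GFP cells were Dab2 at 371 CPM and Gata6 at 112 CPM. The GFP cells at 10 CPM or more numbered 38 for Dab2, 34 for Gata6, 7 for Col4a1, 5 for Lama1 and 4 for Col4a2. They numbered 2 each for Gata4, Pdgfra, Foxa2, Cubn and Srgn, and 1 each for Sox17 and Sox7. The RFP cells at that level numbered 3 for Dab2, 2 for Gata6, 1 for Sox17 and 0 for the others. The summed level of the 12 had a median of 0.281 CPM in RFP cells (range 0 to 731) but 478 CPM over the GFP cells (range 0 to 2134), and its part in the results below was not tested. Fibroblast and oocyte markers had a median sum of 0 CPM in both groups.

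Every measured trophectoderm factor was lower in RFP than in GFP cells. All 9 had a log2 ratio of RFP over GFP cells, taken on CPM + 1 of the summed reads, of −1 or below, where 21.9% of the 13927 genes did; without 1 cell, GFP7, Elf5 was not among them. The median log2 ratio of the 9 genes was −4.03, beside 0.08 for all genes. Counting only members that reached 10 CPM in either group leaves 6, all lower, where 23.3% of the 8184 genes at that level were lower and 26.3% were higher. All 6 reached 10 CPM through the GFP cells only, being at 7.37 CPM or less in RFP cells. Their lower level in RFP cells was thus nearly fixed by that limit, and the count of 6 adds no support. Levels are relative to all reads and not to gene length, so they are compared between groups and not between genes. Intervals in brackets after a level or a share are exact 95% Poisson or binomial ones and cover counting error only. The Poisson ones are too narrow because most read numbers were even, as if both mates of a pair were counted. The binomial ones take cells as independent draws, though cells may share an embryo, so they do not measure a spread between embryos.

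**Figure D1:**
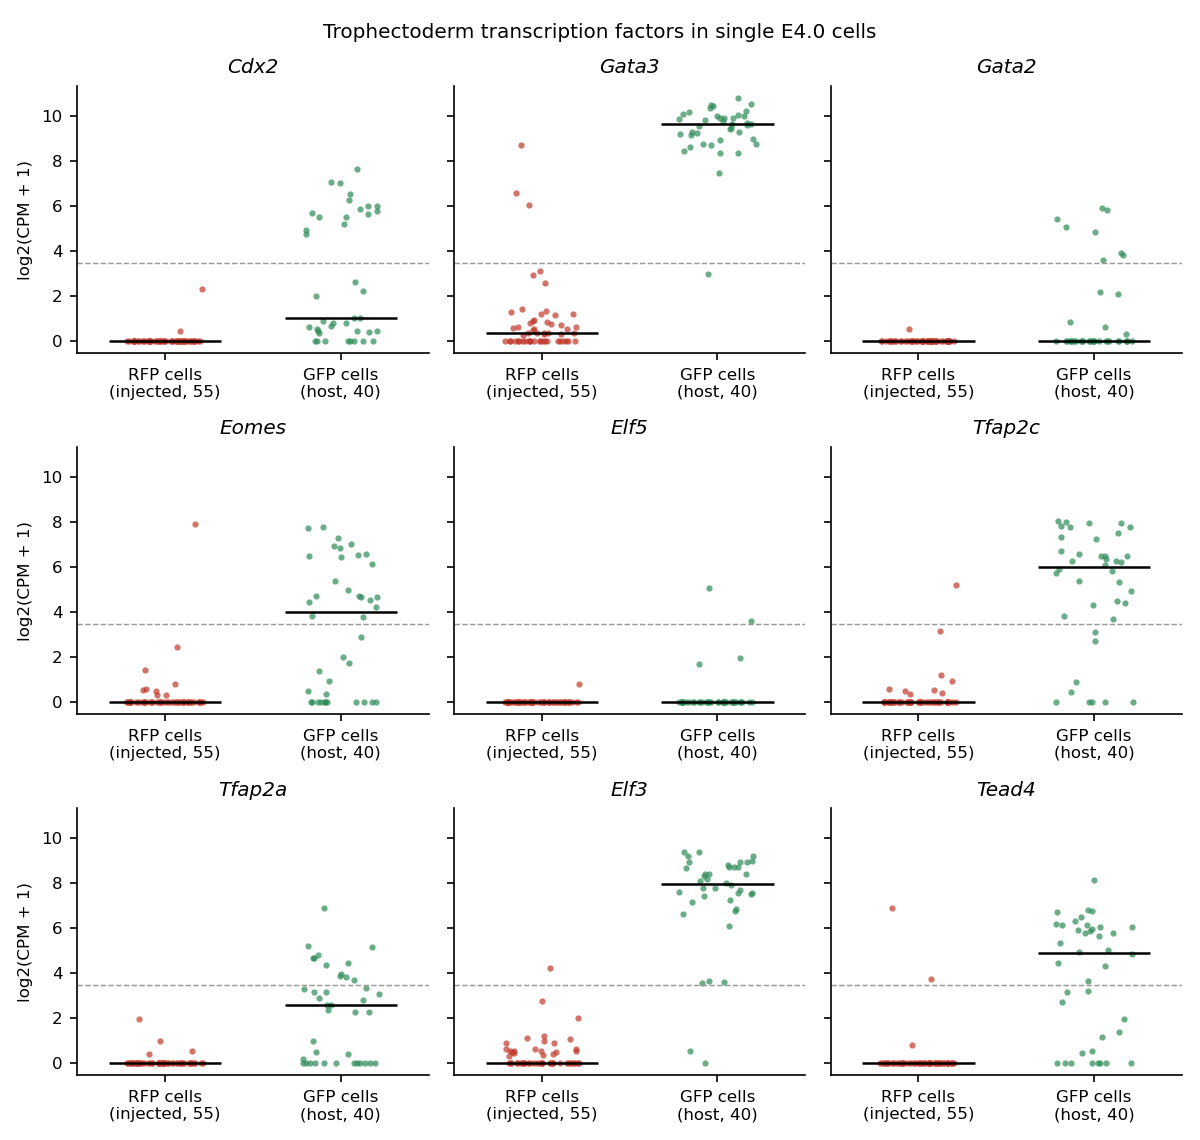
Level of each measured factor in every cell, as log2(CPM + 1), in the 55 RFP cells (left in each panel) and the 40 GFP cells (right). Points are cells, the bar is the median and the dashed line is 10 CPM; Gata3 and Elf3 filled nearly all GFP cells, whereas Cdx2, Eomes and Tead4 had GFP cells on both sides of the line, graded across it for Eomes and Tead4.

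Tead4 encodes the TEAD protein through which YAP1 acts on Cdx2. Its level ranged from 0 through a median of 0 to 118 CPM over the RFP cells, and from 0 through a median of 28.6 to 275 CPM over the GFP cells. The groups overlapped, because RFP41 reached 118 CPM and only 1 GFP cell, GFP1, was above it, but 52 RFP cells had no read at all. At 10 CPM or more were 2 of 55 RFP cells (3.64%, 0.443 to 12.5) and 24 of 40 GFP cells (60%, 43.3 to 75.1). The summed level was 2.11 CPM (1.95 to 2.28) in RFP cells and 40.3 CPM (39.5 to 41.1) in GFP cells, a log2 ratio of −3.73. RFP41, with 10.8% mitochondrial reads, held 86.0% of the RFP reads, and without it the RFP level was 0.3002 CPM and the log2 ratio −4.99.

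Cdx2, the homeobox factor that holds trophectoderm fate, was a gene of some host cells and nearly absent from RFP cells. It ranged from 0 through a median of 0 to 3.93 CPM over the RFP cells, and from 0 through a median of 1.01 to 198 CPM over the GFP cells. No RFP cell reached 10 CPM. If cells were independent, that count of 0 of 55 allows a share of up to 5.45% by the rule of 3 counts and 6.49% by the exact interval. At 10 CPM or more were 16 of 40 GFP cells (40%, 24.9 to 56.7). The other GFP cells were low: 16 lay between 0 and 10 CPM and 8 had no read. The summed level was 0.0321 CPM from 10 reads (0.0154 to 0.0591) in RFP cells and 29.8 CPM (29.1 to 30.5) in GFP cells, a log2 ratio of −4.90. RFP22 held 80% of the 10 RFP reads, and the log2 ratio without it was −4.94.

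Gata3, a zinc-finger factor that TEAD4 raises in parallel with Cdx2, was in nearly every GFP cell. Levels ran from 0 through a median of 0.269 to 414 CPM over the RFP cells, and from 6.78 through a median of 787 to 1773 CPM over the GFP cells. The groups met only at their edges: 3 of 55 RFP cells (5.45%, 1.14 to 15.1) and 39 of 40 GFP cells (97.5%, 86.8 to 99.9) were at 10 CPM or more, 33 GFP cells were above the highest RFP cell, and the lowest GFP cell was GFP27. Over all cells Gata3 summed to 7.37 CPM (7.07 to 7.68) in RFP cells and 795 CPM (791 to 798) in GFP cells, a log2 ratio of −6.57. RFP55 held 62.6% of the RFP reads; without it the RFP level was 2.79 CPM and the log2 ratio −7.71. A trace of Gata3 was common in RFP cells, with at least 1 read in 32 of 55.

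Gata2, the related zinc-finger factor active in trophoblast and blood progenitors, was found in few GFP cells. It ranged from 0 through a median of 0 to 0.437 CPM over the RFP cells, and from 0 through a median of 0 to 59.9 CPM over the GFP cells. A single RFP cell, RFP30, had reads, whereas 13 GFP cells had reads and 8 of 40 (20%, 9.05 to 35.6) were at 10 CPM or more. The sum for Gata2 was 0.00643 CPM from 2 reads in RFP cells and 6.44 CPM (6.11 to 6.78) in GFP cells, a log2 ratio of −2.89 (−2.96 to −2.80).

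Eomes, the T-box factor of trophoblast stem cells, was at 10 CPM or more in some GFP cells and lower in the others. Levels ran from 0 through a median of 0 to 241 CPM over the RFP cells, and from 0 through a median of 15.2 to 218 CPM over the GFP cells. The highest cell of all was an RFP cell, RFP22, which was above every GFP cell; no other RFP cell reached 10 CPM. The share at 10 CPM or more was 1 of 55 RFP cells (1.82%, 0.0460 to 9.72) and 22 of 40 GFP cells (55%, 38.5 to 70.7). Eomes summed to 1.69 CPM (1.55 to 1.84) in RFP cells and 42.99 CPM (42.1 to 43.9) in GFP cells, a log2 ratio of −4.03. RFP22 held 93.7% of the RFP reads, and without it the RFP level was 0.107 CPM and the log2 ratio −5.31. The same cell held most of the Cdx2 reads of its group, with 270 CPM of trophectoderm and 2220 CPM of epiblast markers.

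Elf5, an ETS factor that maintains trophoblast stem cells, was hardly detected in either group. It ranged from 0 through a median of 0 to 0.733 CPM over the RFP cells, and from 0 through a median of 0 to 32.1 CPM over the GFP cells. Reads were found in 1 of 55 RFP cells and in 4 of 40 GFP cells, of which 2 were at 10 CPM or more. The summed level was 0.00643 CPM from 2 reads in RFP cells and 1.33 CPM (1.19 to 1.49) in GFP cells, a log2 ratio of −1.21 (−1.32 to −1.10). GFP7 held 73.8% of the GFP reads, and without it the GFP level was 0.360 CPM and the log2 ratio −0.43, so that the 2-fold difference rested on this cell.

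Tfap2c encodes AP-2 gamma, which acts with CDX2 and EOMES in trophoblast. Levels ran from 0 through a median of 0 to 36.1 CPM over the RFP cells, and from 0 through a median of 62.7 to 260 CPM over the GFP cells. Most GFP cells were high and almost all RFP cells at or near 0: 1 of 55 RFP cells (1.82%, 0.0460 to 9.72), RFP38, and 31 of 40 GFP cells (77.5%, 61.5 to 89.2) were at 10 CPM or more. The reads of Tfap2c summed to 0.983 CPM (0.876 to 1.10) in RFP cells and 87.0 CPM (85.8 to 88.2) in GFP cells, a log2 ratio of −5.47. RFP38 held 87.6% of the RFP reads, and the log2 ratio without it was −6.29.

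Tfap2a, which encodes AP-2 alpha, was present in part of the GFP cells. It ranged from 0 through a median of 0 to 2.87 CPM over the RFP cells, and from 0 through a median of 4.93 to 117 CPM over the GFP cells. No RFP cell and 12 of 40 GFP cells (30%, 16.6 to 46.5) reached 10 CPM, and 12 GFP cells had no read. Many GFP cells lay near that limit: the GFP share was 60% at 1 CPM and 2.5% at 50 CPM. Tfap2a reads summed to 0.0578 CPM from 18 reads (0.0343 to 0.0914) in RFP cells and 9.99 CPM (9.58 to 10.4) in GFP cells, a log2 ratio of −3.38. RFP44 held 44.4% of the RFP reads, and without it the RFP level was 0.0324 CPM and the log2 ratio −3.41.

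Elf3, an ETS factor of epithelia, was low in RFP cells and high in most GFP cells. It ranged from 0 through a median of 0 to 17.7 CPM over the RFP cells, and from 0 through a median of 246 to 666 CPM over the GFP cells. Like Gata3 it marked nearly all GFP cells, and 35 of them were above the highest RFP cell, RFP51. At 10 CPM or more were 1 of 55 RFP cells (1.82%, 0.0460 to 9.72) and 38 of 40 GFP cells (95%, 83.1 to 99.4). The summed level was 0.524 CPM (0.446 to 0.611) in RFP cells and 277 CPM (275 to 280) in GFP cells, a log2 ratio of −7.51. RFP51 held 51.5% of the RFP reads, and without it the RFP level was 0.258 CPM and the log2 ratio −7.79. With each cell thinned to 500000 reads the shares at 10 CPM or more of Elf3 were 3.64% of RFP cells and 92.5% of GFP cells.

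Counted per cell, 47 of 55 RFP cells had none of the 9 factors at 10 CPM or more and the other 8 had exactly 1. These were Gata3 in RFP55, RFP44 and RFP48 (414, 94.0 and 65.4 CPM), Tead4 in RFP41 and RFP43 (118 and 12.4 CPM), Eomes in RFP22, Tfap2c in RFP38 and Elf3 in RFP51. So no RFP cell combined a pair of the factors at this level. GFP cells had 1 to 7 factors with a median of 5; 35 of 40 had 4 or more, and GFP27 had 1, Elf3 at 11.6 CPM.

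Across the 40 GFP cells the factors were only loosely ordered with each other. Over the 36 pairs Spearman's rho of the CPM had a median of 0.088. All pairs of the 4754 genes with at least 10 CPM and a read in at least 50% of GFP cells had a median of 0.064. Of those pairs, 95% lay between −0.296 and 0.399. Gata2, Elf5 and Tfap2a did not meet these limits, and the 15 pairs of the other 6 factors had a median of 0.088 too. Cells may come from the same embryo and differ in depth, so these values describe the cells and carry no p. The highest pair was Eomes with Elf3 at 0.466, and all 22 GFP cells with Eomes at 10 CPM or more also had Elf3 there, as did 38 of 40 GFP cells in all. Gata2 with Elf3 followed at 0.434 and Tfap2c with Tfap2a at 0.322. The lowest was Gata3 with Eomes at −0.383, and it was −0.463 without GFP27, but Pearson's r on log2(CPM + 1) was −0.097. Cdx2 and Eomes, both early trophectoderm factors, had a rho of 0.088: 8 GFP cells had both at 10 CPM or more, 8 had Cdx2 without Eomes, 14 had Eomes without Cdx2 and 10 had neither. Cdx2 was nearest to Tead4, with a rho of 0.272 and 13 of the 16 Cdx2 cells at 10 CPM or more of Tead4.

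**Figure D2:**
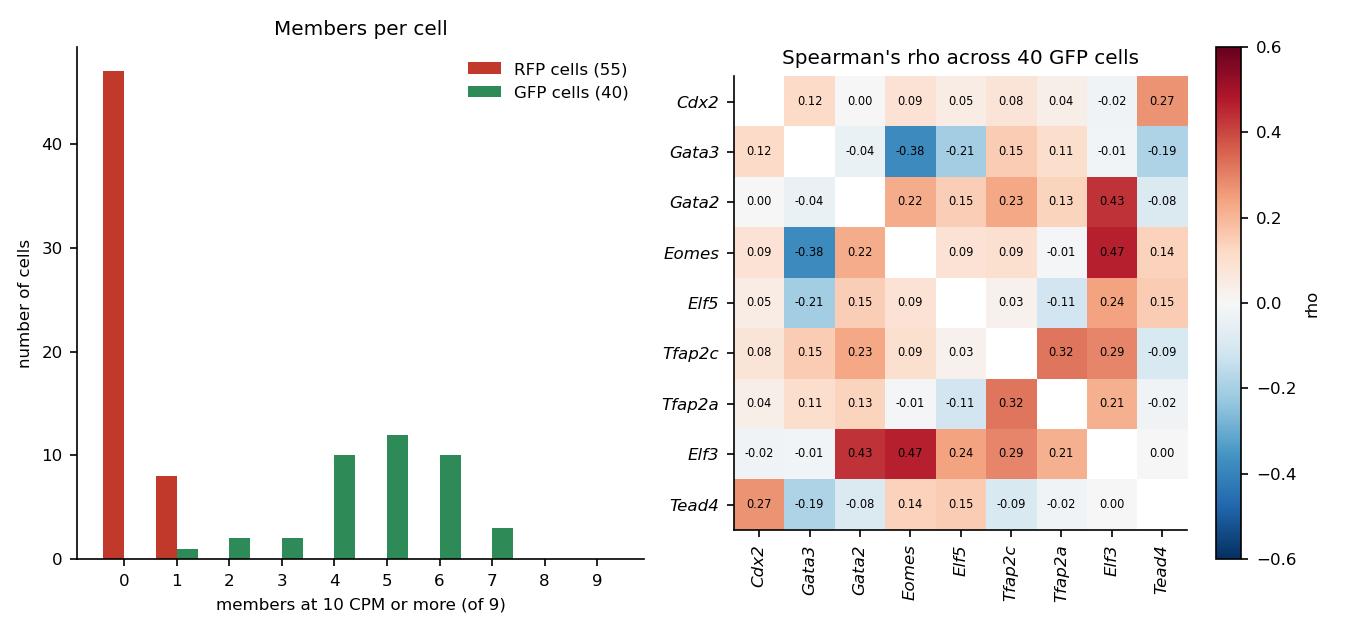
Left, number of cells by how many of the 9 measured factors were at 10 CPM or more, for 55 RFP cells (red, left bars) and 40 GFP cells (green, right bars). Right, Spearman's rho of the CPM for each pair of factors across the 40 GFP cells; most squares are pale, Eomes with Elf3 is the highest at 0.466 and Gata3 with Eomes the lowest at −0.383.

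Outside marker sums moved with some of the factors in GFP cells. The rho with the trophectoderm marker sum was 0.437 for Elf3, 0.306 for Gata3, 0.285 for Gata2 and 0.222 for Cdx2. It was 0.066 for Elf5, 0.051 for Eomes, 0.046 for Tfap2c, 0.015 for Tead4 and 0.011 for Tfap2a. Gata2 had a rho of 0.373 with the primitive endoderm sum and −0.430 with the mitochondrial share, and Elf5 had 0.436 with the number of genes detected, from 4 cells with reads. Their part in the pair values was not tested. Among genes with the same limits, those nearest to each factor over the 40 cells were Fbxl5, Peli1 and Bex3 for Cdx2 (rho 0.527, 0.520 and 0.516). For Gata3 they were Cdkn1a, Mtf2 and Isg20l2 (0.552, 0.535 and 0.530), and for Eomes Appl1, Ddx10 and Slain2 (0.590, 0.566 and 0.558). For Tfap2c they were Zpr1, Nutf2 and Rpl15 (0.636, 0.584 and 0.579), and for Tead4 Ppat, Tmem256 and Nktr (0.610, 0.597 and 0.550). Elf3 had the closest of all, Sfn, Calcoco2 and Ctsd (0.679, 0.663 and 0.623). None of the 18 was another member, but only 6 of the 4754 genes with these limits were members, so few could be. The 18 are the highest values from that many genes over 40 cells, and what such a top rank gives by itself was not tested.

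Among 18 genes that act upstream of the factors in Hippo and Notch signalling, 6 were at least 2-fold lower and 3 at least 2-fold higher in RFP cells, with a median log2 ratio of −0.25, beside 21.9% and 25% of all genes. The coactivators themselves were unlike: Yap1 was 41.6 CPM in RFP and 42.7 CPM in GFP cells, while Wwtr1, which encodes TAZ, was 13.5 CPM in RFP and 36.8 CPM in GFP cells (log2 ratio −1.39). Both, and the TEAD genes named below, were picked after their values were seen. Of those that reached 10 CPM in either group, the lowest were Amot, a junction scaffold of Hippo signalling, at 0.0321 CPM in RFP and 32.3 CPM in GFP cells (−5.01), and Vgll4, a TEAD-binding cofactor, at 0.116 CPM in RFP and 24.4 CPM in GFP cells (−4.51). The highest at that level were Nf2, the Hippo activator Merlin, at 56.6 CPM in RFP and 9.87 CPM in GFP cells (2.41), and Amotl2, a relative of Amot, at 42.7 CPM in RFP and 23.2 CPM in GFP cells (0.85). Of the other TEAD genes, Tead1 had 22.3 CPM in RFP and 32.4 CPM in GFP cells (−0.52) and Tead2 had 18.1 CPM in RFP and 11.7 CPM in GFP cells (0.58), so the 2-fold difference of Tead4 was not seen in either. Tead3 was at 0.771 CPM in RFP cells and had no read in GFP cells.

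Of 22 further factors linked to trophectoderm, 11 were at least 2-fold lower and 4 at least 2-fold higher in RFP cells, and the median log2 ratio was −0.92, beside 21.9% of all genes lower and 25% higher. Id2, an inhibitor of helix-loop-helix factors, had 14.7 CPM in RFP and 1234 CPM in GFP cells (−6.30), and Satb1, a chromatin organiser, had 1.61 CPM in RFP and 98.9 CPM in GFP cells (−5.26). Esrrb, a nuclear receptor of both trophoblast stem cells and ESCs, had 45.03 CPM in RFP and 5.14 CPM in GFP cells (2.91), and Sbno1 had 200 CPM in RFP and 103.1 CPM in GFP cells (0.95). Of 24 genes of the epithelium that these factors serve, 23 were in the table, with 18 at least 2-fold lower, 1 at least 2-fold higher and a median of −4.23, beside the same shares of all genes. Tspan8, a tetraspanin, had 2.92 CPM in RFP and 748 CPM in GFP cells (−7.58), and Dsp, the desmosome protein desmoplakin, had 0.135 CPM in RFP and 148 CPM in GFP cells (−7.04). Tjp1, which encodes the junction protein ZO-1, was at 25.7 CPM in RFP and 14.3 CPM in GFP cells (0.80), and Cldn6, a claudin, at 49.9 CPM in RFP and 66.4 CPM in GFP cells (−0.40), both within the 2-fold limit.

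The relatives of the members within their own families were mixed. Of 21 relatives 14 were in the table, 6 at least 2-fold lower and 2 at least 2-fold higher in RFP cells, with a median log2 ratio of −0.69, beside 21.9% of all genes lower and 25% higher. Gata6, the primitive endoderm factor, had 2.90 CPM in RFP and 112 CPM in GFP cells (−4.85), and Tbx20, a T-box factor, had 0.0129 CPM in RFP and 27.8 CPM in GFP cells (−4.83). Elf1, a widely expressed ETS factor, had 27.5 CPM in RFP and 30.5 CPM in GFP cells (−0.14).

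At the DNA level, the starts of the factors were less methylated than those of most genes in each of the 3 cultures. Methylation is the share of methylated calls over the deposited 200 bp windows within 2000 bp of the start that had at least 5 calls in all 3 libraries, with Wilson 95% intervals for counting error. The member median was 8.30% in Actin-RFP ESCs, 16.5% in Gjb2-35delG ESCs and 22.1% in MEF, beside 24.3%, 49.5% and 61.2% over 26523 genes in the same order. Below 20% were 9 of 10 members in Actin-RFP ESCs, 7 in Gjb2-35delG ESCs and 5 in MEF, where 43.2%, 22.8% and 9.32% of all genes were. The member medians keep the order of the libraries over all genes, with Actin-RFP ESCs the lowest.

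**Figure D3:**
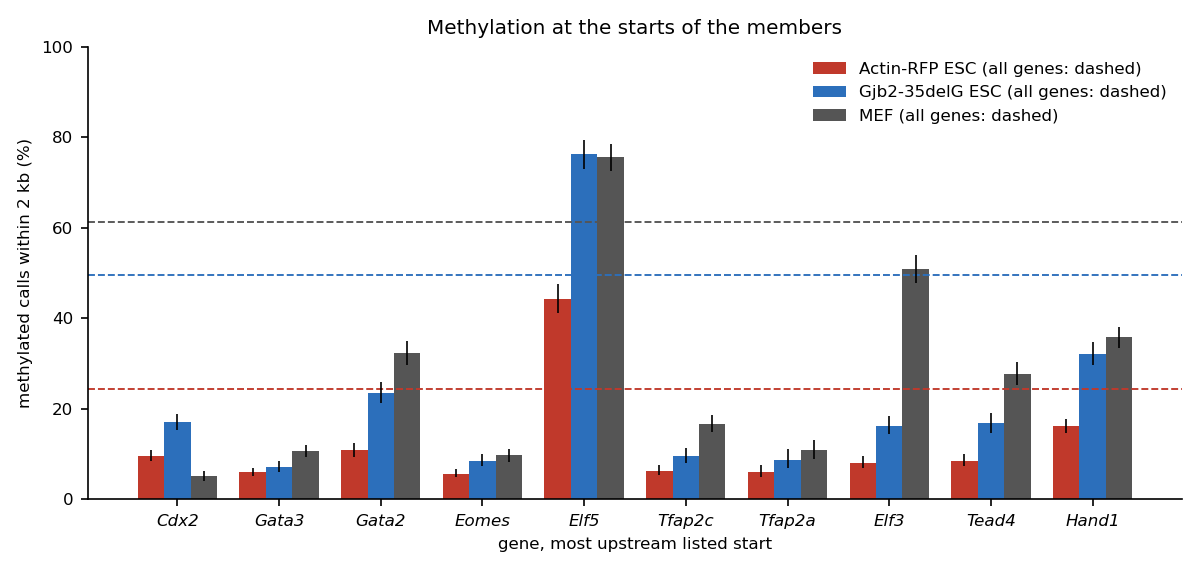
Methylated calls (%) within 2000 bp of the most upstream listed start of each of the 10 factors in Actin-RFP ESCs (red), Gjb2-35delG ESCs (blue) and MEF (grey). Bars are 1 library each with Wilson 95% intervals of the calls and dashed lines are the medians over 26523 genes (24.3%, 49.5% and 61.2%); Cdx2 alone is lowest in MEF, and Elf5 alone is above the line in all 3.

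Set against MEF, 6 of 10 members were at least 10 percentage points lower in Actin-RFP ESCs, beside 90.6% of all genes, and 2 (Elf3 and Tead4) were in Gjb2-35delG ESCs, beside 47.3%. The members' share is thus below that of all genes in both lines. Their median level in MEF was also lower, at 22.1% beside 61.2% for all genes, and its part in this was not tested. The median difference of the members was −14.7 points in Actin-RFP ESCs and −3.48 points in Gjb2-35delG ESCs, beside −30.7 and −9.35 points for all genes.

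Cdx2 (start at chr5:147307249) went the other way. Its level was 9.62% (8.51 to 10.9) in Actin-RFP ESCs, 16.98% (15.2 to 18.9) in Gjb2-35delG ESCs and 5.06% (4.07 to 6.28) in MEF, which is 4.56 and 11.9 points above MEF. A level 10 points or more above MEF was seen in 3.95% of all genes for Gjb2-35delG ESCs and in 0.143% for Actin-RFP ESCs, where no member had one. The difference lay upstream and not at the start. In the 3 windows centred at −1451.5, −1251.5 and −1051.5 bp from the start, methylation was 58.5%, 57.7% and 47.2% in Actin-RFP ESCs, 72.1%, 75% and 71.1% in Gjb2-35delG ESCs, and 5.08%, 13.3% and 25.6% in MEF. These windows had 43 to 111 calls per library. Within 500 bp of the start the level was 4.14% in Actin-RFP ESCs, 6.08% in Gjb2-35delG ESCs and 3.42% in MEF. Windows higher in both ESC lines than in MEF also lay far upstream of other members. The Hand1 window centred at −1953.5 bp had 34.3% in Actin-RFP ESCs, 63.5% in Gjb2-35delG ESCs and 24.2% in MEF. The window at −1990.5 bp from start 1 of Gata2 had 44.7%, 93.3% and 27.3% in the same order. Both were picked after their values were seen, and other windows of these genes were highest in MEF.

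Elf3 (start at chr1:135258472) had the largest difference of the 10 in the opposite sense. It was 8.09% (6.79 to 9.61) in Actin-RFP ESCs, 16.3% (14.4 to 18.3) in Gjb2-35delG ESCs and 50.9% (47.8 to 53.97) in MEF, or −42.8 and −34.6 points against MEF. MEF methylation was high over much of the gene body and in 1 covered window upstream. The window centred at −1428.5 bp had 33.3% in Actin-RFP ESCs, 35.3% in Gjb2-35delG ESCs and 94.7% in MEF, from 9 to 19 calls. The window centred 371.5 bp after the start had 9.78% in Actin-RFP ESCs, 10.7% in Gjb2-35delG ESCs and 72.1% in MEF. The one 1371.5 bp after it had 10.7%, 27.5% and 96.3% in the same order. The window over the start itself had 3.65% in Actin-RFP ESCs, 7.38% in Gjb2-35delG ESCs and 15.8% in MEF.

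**Figure D4:**
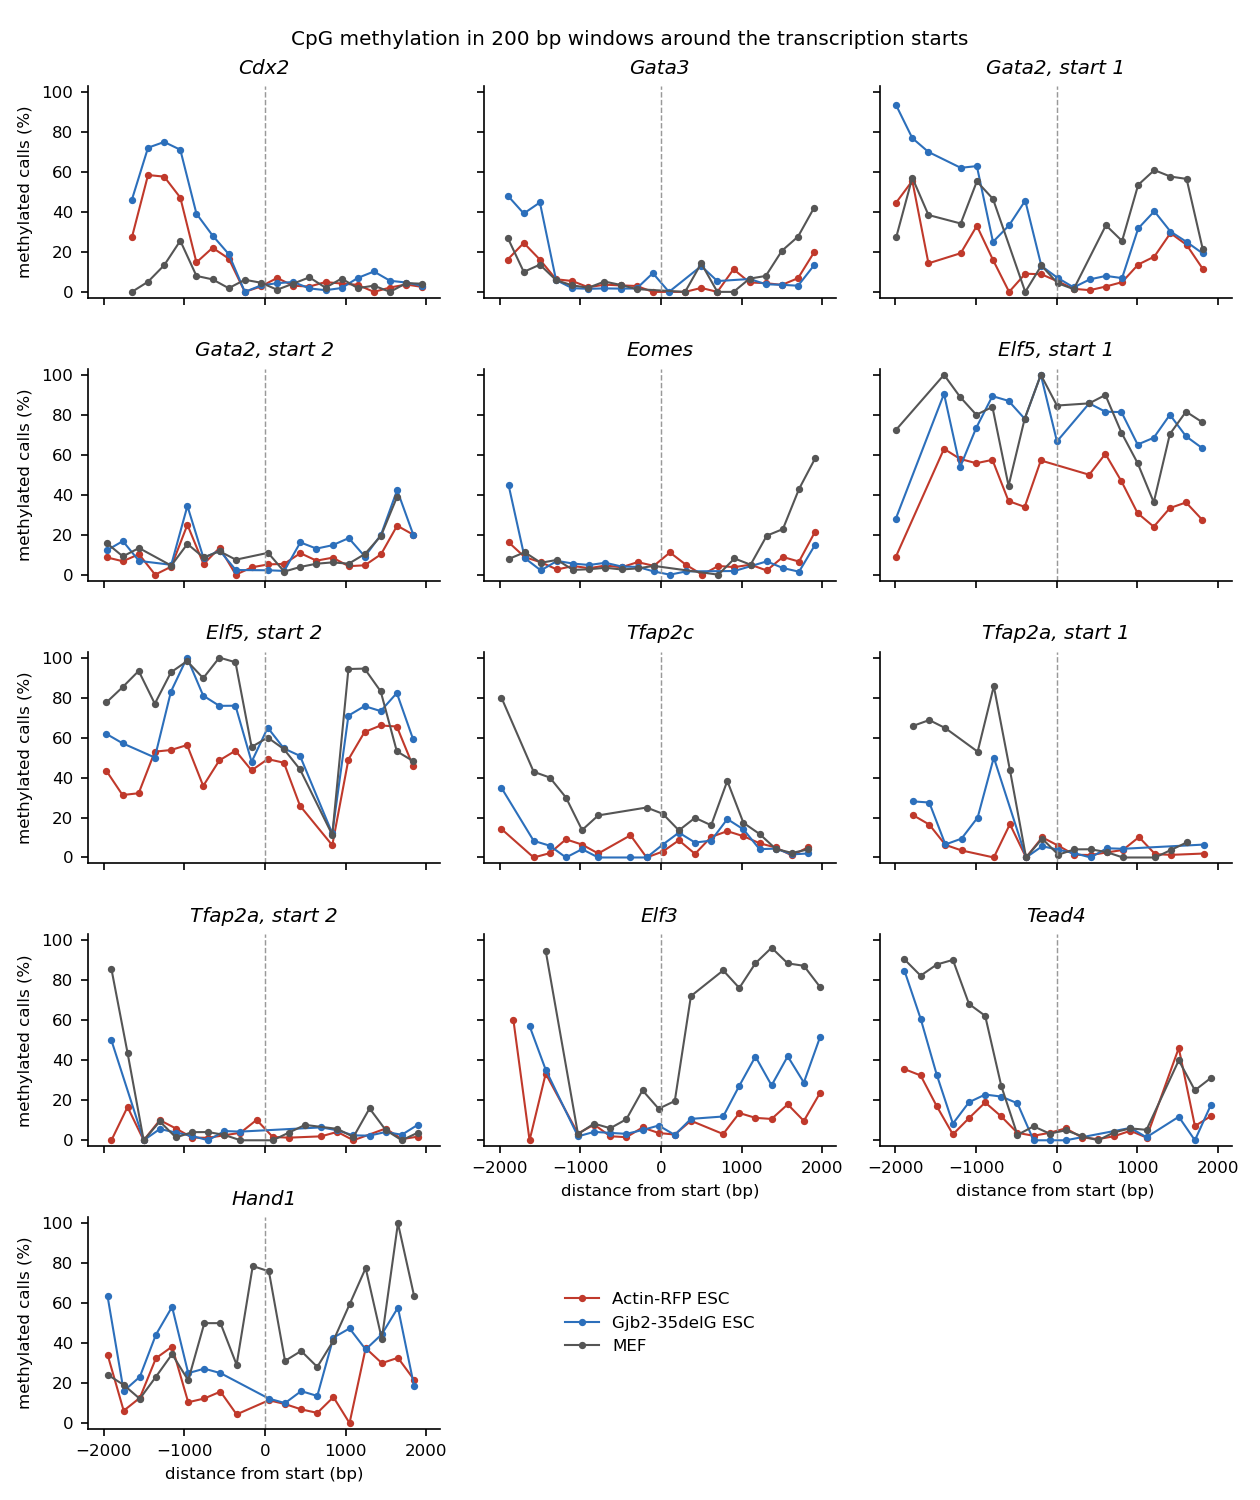
Methylated calls (%) in 200 bp windows by distance from the transcription start (bp, negative upstream), for Actin-RFP ESCs (red), Gjb2-35delG ESCs (blue) and MEF (grey), each 1 library. Most starts sit in a trough near 0%. Cdx2 has a peak upstream in both ESC lines, Elf3 is methylated downstream mainly in MEF, and Elf5 is methylated across nearly the whole region. Hand1 and start 1 of Gata2 also have windows far upstream that are higher in both ESC lines than in MEF.

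Elf5 was the one factor methylated in all 3 cultures. Start 1 (chr2:103412098) had 44.3% (41.1 to 47.6) in Actin-RFP ESCs, 76.4% (73.0 to 79.5) in Gjb2-35delG ESCs and 75.7% (72.6 to 78.6) in MEF. Start 2 (chr2:103424068) had 47.9% (45.4 to 50.5) in Actin-RFP ESCs, 64.7% (61.9 to 67.5) in Gjb2-35delG ESCs and 70.2% (67.3 to 72.9) in MEF. The Gjb2-35delG line was thus within 0.69 points of MEF at start 1, and the difference of Actin-RFP ESCs was −31.4 points, beside a median of −30.7 for all genes. One window 832.5 bp after start 2 stood out as low, with 6.12% in Actin-RFP ESCs, 12.05% in Gjb2-35delG ESCs and 11.3% in MEF.

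Tead4 (start at chr6:128300813) was 8.50% (7.22 to 9.99) in Actin-RFP ESCs, 16.7% (14.7 to 18.96) in Gjb2-35delG ESCs and 27.7% (25.2 to 30.3) in MEF. Its start was low in all 3, at 4.37%, 6.49% and 4.17% within 500 bp in the same order, and the difference was upstream. In the window centred at −1287.5 bp it had 2.94% in Actin-RFP ESCs, 8.33% in Gjb2-35delG ESCs and 90.2% in MEF. Hand1, a basic helix-loop-helix factor of trophoblast giant cells (start at chr11:57832147), was 16.1% (14.6 to 17.7) in Actin-RFP ESCs, 32.2% (29.6 to 34.8) in Gjb2-35delG ESCs and 35.7% (33.4 to 38.1) in MEF. The window over the Hand1 start had 11.4% in Actin-RFP ESCs, 12.2% in Gjb2-35delG ESCs and 75.9% in MEF.

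The other starts were at low levels. Gata3 (chr2:9878600) was 5.97% (5.15 to 6.92) in Actin-RFP ESCs, 7.17% (6.09 to 8.43) in Gjb2-35delG ESCs and 10.6% (9.32 to 11.9) in MEF. Eomes (chr9:118478189) was 5.64% (4.82 to 6.59), 8.51% (7.30 to 9.90) and 9.64% (8.30 to 11.2) in the same order. The pooled level of each of these 2 genes stayed within 5 points over the 3 libraries, but single windows differed more, in both directions. The Gata3 window at −1500.5 bp had 16.1% in Actin-RFP ESCs, 44.7% in Gjb2-35delG ESCs and 13.6% in MEF. The Gata3 window 1699.5 bp after the start had 6.87%, 3.09% and 27.7% in the same order. For Eomes the window at −1888.5 bp had 16.2%, 44.8% and 7.83%, and the one 1911.5 bp after the start had 21.6%, 15% and 58.2%. Tfap2c (chr2:172545678) was 6.31% (5.31 to 7.48) in Actin-RFP ESCs, 9.51% (7.95 to 11.3) in Gjb2-35delG ESCs and 16.6% (14.8 to 18.5) in MEF. Tfap2a start 1 (chr13:40734920) was 6.02% in Actin-RFP ESCs, 8.74% in Gjb2-35delG ESCs and 10.8% in MEF, and its start 2 (chr13:40733795) was 3.54%, 4.15% and 4.53%. For Gata2 the 2 listed starts differed most in MEF: start 1 (chr6:88193891) had 10.8% in Actin-RFP ESCs, 23.4% in Gjb2-35delG ESCs and 32.3% in MEF, while start 2 (chr6:88198664), the one richest in CpGs, had 7.94%, 12.3% and 9.61%. No library of trophectoderm or of the picked cells was among the methylation files used here, so level and methylation of a factor were not measured in the same cells.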

How the data were processed

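Full-length cDNA of hand-picked single cells was amplified, per the labels' protocols. Tools named by the submitters' processing notes, in no stated role, include STAR 2.7.3a, fastp 0.20.0 and featureCounts 2.0.0, and their build is mm10. The deposited expression values are a signal: in each cell they are whole multiples of 1 step. Dividing the deposited values by that step returned whole numbers of reads (100% within 0.01), and 87.8% of the nonzero reads were even. Because each group is 1 sample, no count model was run. Of 13927 gene IDs, 13922 matched a symbol. The deposited methylation files give, per window of 200 bp, a methylated fraction with 2 counts, read here as methylated and unmethylated calls. Together these sum to 287946900 to 319285707 calls per library, and the sources used here name no caller. The deposited CpG number per window counts positions on both strands.

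Reads were scaled to CPM per cell and per group sum, with a pseudocount of 1 on the log2 scale. Starts came from the RefSeq promoter table (GRCm38.p6), most upstream first. Tfap2c, Tead4 and Hand1 are not in it, so the gene end given by their strand was used; that strand came from general knowledge and was checked only by the higher number of CpG positions at that end. Named genes were the members, the 2 highest and 2 lowest genes at 10 CPM or more of each list, and the 3 nearest genes of each member. All the primitive endoderm markers were named as well. Members and lists were chosen with earlier results of these data known. Alternatives were the pseudocount, cell weighting, scaling, thinning, cells left out, window width and start. Of the 131 samples, 98 were used here; the RFPpos, GFPpos, RFPpos-GFPpos, amplicon and E7.5 samples were not analysed here. Python 3.11.15, numpy 2.4.6, scipy 1.17.1, pandas 2.3.3, matplotlib 3.10.9 were used, and scripts were tested on simulated data.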

Additional observations from a re-analysis of the deposited data

How the results depend on the processing

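All 9 measured factors stayed below 0 in log2 ratio under the 9 alternatives run. The median of the list, −4.03, was −2.05 with a pseudocount of 10, −3.64 from the mean over cells of the CPM, −3.12 from the mean over cells of log2(CPM + 1), −4.11 with median-of-ratios size factors and −4.05 with totals without mitochondrially encoded genes. It was −4.91 without the 5 cells with over 10% mitochondrial reads. For the 6 members at 10 CPM or more, which reached that level in GFP cells only, it was −5.19. Chosen after seeing the data, it was −4.03 without RFP6, RFP55 and GFP27, −4.99 without the RFP cell and −3.86 without the GFP cell with most reads of each gene. The number at least 2-fold lower was 6 with a pseudocount of 10, where low genes are damped, and 8 from the mean of log2(CPM + 1) and without the top GFP cell; otherwise it was 9, or 6 of 6. Shares of cells moved with the threshold: at 50 CPM the GFP share was 27.5% for Eomes, 5% for Gata2, 25% for Cdx2, 57.5% for Tfap2c, 40% for Tead4 and 0% for Elf5, and at 1 CPM the RFP share was 21.8% for Gata3 and 10.9% for Elf3. Pair correlations ranged from −0.463 to 0.504 over their alternatives.

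The median methylation difference against MEF was −14.7 points in Actin-RFP ESCs and −3.48 in Gjb2-35delG ESCs. In that order it was −13.2 and −3.22 within 1000 bp, −0.99 and −0.059 within 500 bp, −18.9 and −8.30 as the mean of the deposited fractions, −12.9 and −2.66 with at least 20 calls per window, and −29.6 and −6.43 at the other end of the gene. With the most downstream listed start, chosen after seeing the data, it was −7.42 in Actin-RFP ESCs and −3.48 in Gjb2-35delG ESCs. The cause was not tested beyond the windows each choice includes; within 500 bp Elf3 still had 4.59% in Actin-RFP ESCs, 6.07% in Gjb2-35delG ESCs and 28.1% in MEF. No paired analysis was possible because each group of cells is 1 sample, the shared numbers of cells name no embryo, and no test was run.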
